A study of Homo sapiens with 6 samples.

Results

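The expression of 10 genes of polyamine metabolism was examined in PANC-1, an established cell line from a human pancreatic ductal adenocarcinoma, after silencing of the m6A methyltransferase METTL16. The genes were taken from the deposited table by symbol: ODC1, AMD1, SRM and SMS for synthesis, OAZ1, OAZ2 and AZIN1 for the control of ornithine decarboxylase, and SAT1, SMOX and PAOX for catabolism. Each symbol matched a single row among the 58735 genes of the table, and all 10 passed the filter on low counts, which left 15089 genes. RNA-seq covered 3 control samples, given a control siRNA (si-NC), and 3 samples in which an siRNA targeted METTL16 (si-METTL16). Both groups were PANC-1 cells with no other stated treatment, although the transfection label of the control samples reads WT while their titles read si-NC. The methods describe the cells as stably transfected biological triplicates, and the time between transfection and RNA extraction is not given there. The siRNA sequence was not used here. All values are from this single cell line and from mRNA.

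Polyamines are small positively charged amines that bind nucleic acids and are needed for growth and translation. Ornithine decarboxylase (ODC1) makes putrescine, and spermidine synthase (SRM) and spermine synthase (SMS) then add aminopropyl groups to give spermidine and spermine. The aminopropyl donor is S-adenosylmethionine (SAM) after decarboxylation by AMD1. Antizymes (OAZ1, OAZ2) bind ornithine decarboxylase and send it to the proteasome, while the antizyme inhibitor AZIN1, an inactive relative of the enzyme, binds the antizymes instead. Spermidine/spermine acetyltransferase (SAT1) starts catabolism, PAOX oxidises the acetylated products, and SMOX converts spermine directly back to spermidine. Much of this pathway is controlled at translation and protein turnover, including the ribosomal frameshift that antizyme mRNAs need, so mRNA levels do not give enzyme levels.

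METTL16 is known to methylate hairpins in the 3′ UTR of MAT2A, the mRNA of the SAM synthetase, and these sites are shown because SAM is the substrate that AMD1 draws on. The search used the letters TACAGAGAA and TACAGAAAA on the sense strand of the canonical transcript of each gene (GENCODE v44, GRCh38). MAT2A held 6 copies, all in the 3′ UTR on the plus strand of chromosome 2, and each is printed 5′ to 3′ with 10 bases on either side and the motif in capitals.
MAT2A site 1, chr2:85543802-85543830, exon 9: tggcgtaggcTACAGAGAAgccttcaagc
MAT2A site 2, chr2:85544589-85544617, exon 9: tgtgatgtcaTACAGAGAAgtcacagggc
MAT2A site 3, chr2:85544774-85544802, exon 9: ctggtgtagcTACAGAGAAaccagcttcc
MAT2A site 4, chr2:85544889-85544917, exon 9: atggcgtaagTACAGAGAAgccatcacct
MAT2A site 5, chr2:85545004-85545032, exon 9: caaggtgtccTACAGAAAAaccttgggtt
MAT2A site 6, chr2:85545112-85545140, exon 9: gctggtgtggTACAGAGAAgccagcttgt
None of the 10 polyamine transcripts, between 1049 bases (SAT1) and 4196 bases (AZIN1) long, held either spelling. Of all 20046 canonical protein-coding transcripts, 1560 (7.78%) held at least 1 copy and 2 held at least 6. The absence of these letters says nothing on whether METTL16 binds the RNA elsewhere.

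The 6 samples held between 15725298 and 18054436 counts, at which 3 counts correspond to 0.166 to 0.191 CPM (the count scaled to a common library size). METTL16 itself was counted 1546, 1641 and 1764 times in the control replicates 1, 2 and 3 and 571, 528 and 627 times in the silenced ones, which left 35.9% of the control level. The epithelial keratins KRT8 and KRT18 were high in every sample. The duct markers KRT7 (log2 fold change -0.84), KRT19 (-1.40), CDH1 (-1.09) and SOX9 (-0.25) were lower after silencing. KRT7 was low already in si-NC samples, with a mean of 0.949 FPKM. Thus 4 of the 7 duct and epithelial genes were called lower, against 17.5% of all tested genes. The other 3 did not pass the threshold, with log2 fold changes of 0.44 (EPCAM), 0.20 (KRT18) and -0.23 (KRT8), nor did the mesenchymal genes VIM (0.10) and ZEB1 (0.64), whose summed FPKM was 154 to 210 in si-NC and 188 to 206 in si-METTL16 samples. The summed FPKM of the acinar, islet, leukocyte and endothelial lists stayed at or below 0.992 in every sample. Of the 3 fibroblast genes, COL1A1 was higher after silencing while PDGFRB and DCN were near 0. All 5 genes of a proliferation list (MKI67, TOP2A, PCNA, MCM2 and CCNB1) were called higher, against 18.4% of all tested genes. Their summed FPKM was 146 to 168 in si-NC and 277 to 326 in si-METTL16 samples. Mitochondrial transcripts took 5.36% to 5.59% of the counts in si-NC and 4.91% to 5.25% in si-METTL16 samples. The part of these shifts in the polyamine genes was not tested, and in bulk RNA a change per cell and a change in the share of cells expressing a gene cannot be told apart.

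After METTL16 silencing, 8 of the 10 polyamine genes were differentially expressed, 6 higher (ODC1, AMD1, OAZ1, AZIN1, SAT1 and SMOX) and 2 lower (SMS and PAOX). SRM and OAZ2 did not pass the threshold, an adjusted p under 0.05 over all 15089 genes in the quasi-likelihood test of edgeR. The share of all tested genes past this threshold was 35.9%, 18.4% upward and 17.5% downward. Control and silenced samples were fully separated for the same 8 genes, against 50.9% of all tested genes. The median absolute log2 fold change was 0.54 for the 10 genes and 0.33 for all tested genes. The signed medians were 0.35 and -0.00449. The genes were described with other results of these data known, and the counts are a description of this pathway.

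**Figure D1:**
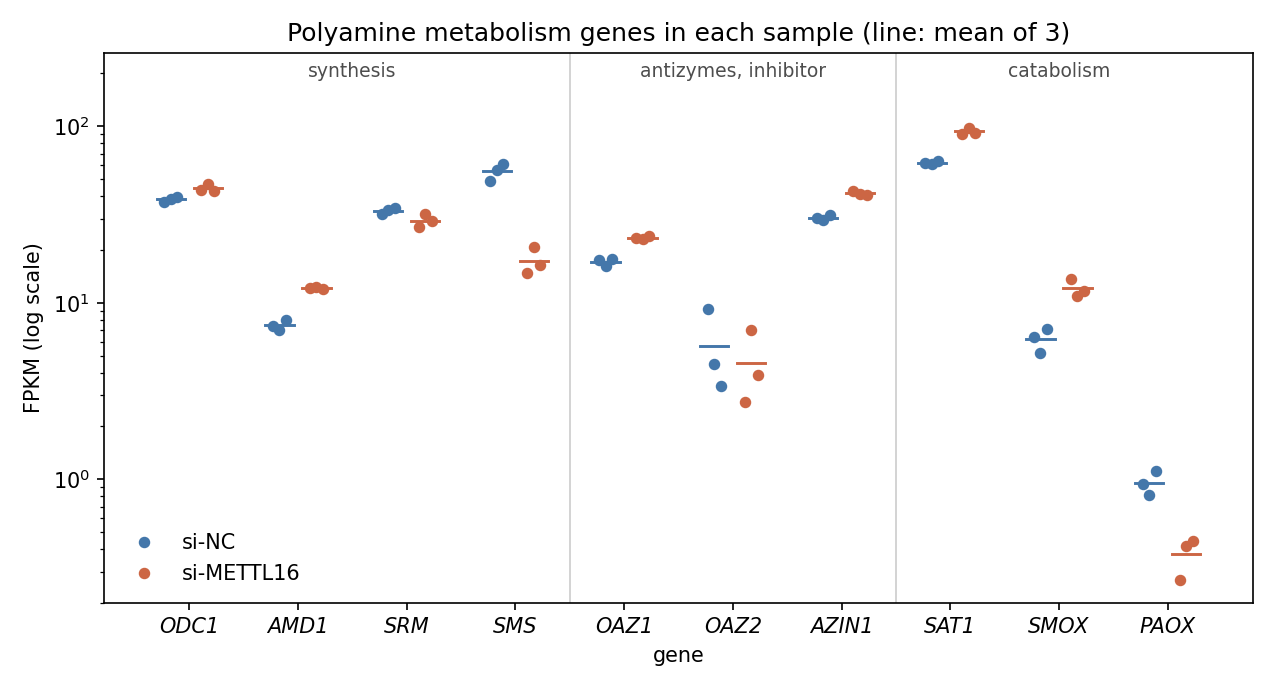
FPKM of each of the 10 polyamine genes (log axis) in the 3 si-NC samples (blue) and the 3 si-METTL16 samples (orange), with a line at each mean. The SMS samples fall from between 48.8 and 61.4 to between 14.7 and 20.7 FPKM, while the OAZ2 samples of the groups are mixed.

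In si-NC cells the order by mean FPKM, which scales counts by gene length, was SAT1 (62.2), SMS (55.5), ODC1 (38.5), SRM (33.3), AZIN1 (30.4), OAZ1 (17.1), AMD1 (7.47), SMOX (6.25), OAZ2 (5.71) and PAOX (0.954). Neighbours in this order did not overlap between samples, except that the OAZ2 range (3.39 to 9.24) took in those of AMD1 and SMOX, which also overlapped each other. After silencing, SMS moved from rank 2 to rank 6, and SAT1 stayed first at 93.4 FPKM. The gene lengths behind the deposited FPKM were 1.14 (ODC1) to 2.83 (OAZ1) times the exon union of GENCODE v44. With CPM per kilobase of that union, a scale chosen after the data were seen, SAT1 and SMS kept ranks 1 and 2 in si-NC cells. OAZ1 then stood at rank 4 (48.0 ± 2.27, SD, n = 3), above AZIN1 (44.9 ± 1.27) and ODC1 (43.5 ± 1.21). The order of these 3 genes therefore depended on the length used, whereas a change within a gene does not.

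Among the synthesis genes, SMS fell, AMD1 rose, ODC1 rose slightly and SRM did not pass the threshold. SMS (ENSG00000102172, chromosome X from 21940573 to 21994835) was counted 2264, 2622 and 2949 times in the control replicates 1, 2 and 3 and 675, 899 and 813 times in the si-METTL16 replicates. Every silenced sample lay far below every control sample. The FPKM of SMS was 55.5 ± 6.33 in control and 17.2 ± 3.12 in silenced cells (SD, n = 3 each). Its log2 fold change was -1.67 (SE 0.14, edgeR adjusted p = 2.92e-04), which left 31.5% of the control level. Of the 15089 tested genes, 131 (0.868%) had a lower log2 fold change than SMS, whose enzyme makes spermine. Leaving out each sample in turn gave values between -1.82 and -1.57.

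AMD1 (ENSG00000123505, chromosome 6 from 110874770 to 110895713) moved the other way. Its counts were 2034, 1941 and 2268 in si-NC and 3295, 3175 and 3521 in si-METTL16 replicates 1, 2 and 3, with the groups well apart. The FPKM rose from 7.47 ± 0.471 to 12.1 ± 0.211 (SD, n = 3 each), a log2 change of 0.72 (SE 0.06, edgeR adjusted p = 3.1e-04). AMD1 commits SAM to polyamine synthesis, and its mRNA rose 1.65-fold.

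ODC1 (ENSG00000115758, chromosome 2 from 10439968 to 10448504), the entry enzyme, was counted 2364, 2442 and 2593 times in si-NC and 2723, 2792 and 2913 times in si-METTL16 samples. The groups did not overlap, but the increase from 38.5 ± 1.11 to 44.6 ± 2.34 FPKM (SD, n = 3 each) was small, at 1.17-fold. The log2 fold change was 0.23 (SE 0.06, edgeR adjusted p = 0.0223). This call was lost when si-NC replicate 1, 2 or 3 was left out (edgeR adjusted p = 0.076, 0.0657 and 0.0554) and without si-METTL16 replicate 1 or 2 (edgeR adjusted p = 0.0515 and 0.0716). SRM (ENSG00000116649, chromosome 1 from 11054584 to 11060024), the step before SMS, had 1792, 1903 and 2012 counts in si-NC and 1493, 1672 and 1762 in si-METTL16 samples. Its FPKM in si-METTL16 replicate 2 (31.7) lay just below that in si-NC replicate 1 (31.8), and after TMM scaling the groups overlapped. The log2 fold change of SRM was -0.17, with a 95% interval from -0.35 to 0.01 (edgeR adjusted p = 0.131).

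The upstream sequence of SAT1, the most abundant member and one that rose, is shown as an example of these promoters. Promoters of 7 of the 10 genes were taken from RefSeq (GRCh38.p14). AZIN1, SMOX and PAOX were not part of this search, and the counts below cover only the 7 genes. The 250 bases before the start site were searched on both strands for the E-box CACGTG and the GC box GGGCGG. The CCAAT box and the TATA box TATAAA were searched in the same way. The SAT1 sequence is printed 5′ to 3′ with its matches in capitals.
SAT1 promoter, chrX:23782923-23783172, plus strand: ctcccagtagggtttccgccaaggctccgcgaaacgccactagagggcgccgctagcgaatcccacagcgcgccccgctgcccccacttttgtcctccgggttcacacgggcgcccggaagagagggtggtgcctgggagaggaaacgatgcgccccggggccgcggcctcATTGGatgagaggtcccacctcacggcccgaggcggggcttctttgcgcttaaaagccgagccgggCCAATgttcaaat
SAT1 held 2 copies of the CCAAT box and none of the others. SMS, which fell, also held the CCAAT box and in addition 1 GC box. The E-box, which MYC is known to bind, was present upstream of SRM and of a start of ODC1, which is 2 of the 7 genes, against 6.34% of the 35116 promoter entries of the same length. The GC box was found for 6 of the 7 genes (42.6% of entries), the CCAAT box for 5 (32.0%) and the letters TATAAA for 0 (10.7%). A gene with several listed starts, as ODC1 and AMD1, counted if any of them matched, while the percentages are over single entries. The counts by gene are therefore raised relative to these percentages. AMD1 counted for the CCAAT box only through its entry at chr6:110814367-110814616, which lies upstream of the AMD1 coordinates in the deposited table. Only these exact letters were searched, and upstream sequences of ODC1 and AMD1 hold the near spelling TATAAG. The 0 therefore does not show that these promoters lack a TATA box.

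Of the genes that control ornithine decarboxylase, OAZ1 and AZIN1 rose to a like extent and OAZ2 showed no common direction. OAZ1 (ENSG00000104904, chromosome 19 from 2269509 to 2273490), the main antizyme, was counted 2853, 2646 and 2979 times in si-NC and 3789, 3498 and 4204 times in si-METTL16 samples. AZIN1 (ENSG00000155096, chromosome 8 from 102826357 to 102893864), which opposes it, was counted 4629, 4547 and 4968 times in si-NC and 6499, 5914 and 6713 times in si-METTL16 samples. For both genes all silenced samples lay above all controls. The log2 fold change was 0.48 for OAZ1 (SE 0.06, edgeR adjusted p = 9.38e-04) and 0.48 for AZIN1 (SE 0.05, edgeR adjusted p = 6.34e-04), each 1.39-fold. The antizyme and its inhibitor therefore rose together at the mRNA level. Over all 6 samples OAZ1 had 19969 counts, against 20 for a readthrough gene on its strand (ENSG00000273734) and 12 for JSRP1, which also overlaps it. AZIN1 had 33270 counts, against 71, 5 and 0 for the overlapping antisense genes AZIN1-AS1, ENSG00000253263 and ENSG00000253385. A further GENCODE v44 gene on the strand of AZIN1 (ENSG00000289653) was not analysed here.

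OAZ2 (ENSG00000180304, chromosome 15 from 64687573 to 64703281) encodes a second antizyme. Its counts varied within each group, at 1945, 947 and 739 in the control replicates 1, 2 and 3 and 569, 1386 and 886 in the si-METTL16 replicates. The highest si-NC sample had 2.73 times the FPKM of the lowest, and the highest si-METTL16 sample 2.58 times, so the groups overlapped. The biological coefficient of variation of OAZ2 was 38.1%, against 8.17% to 19.4% for the other 9 genes. Its log2 fold change was -0.30 with a 95% interval from -1.35 to 0.75 (edgeR adjusted p = 0.632), and without si-NC replicate 1 it was 0.23. This interval takes in the value of OAZ1, so a change of that size was not detectable for OAZ2. The 3 antisense genes of OAZ2 had 3, 5 and 12 counts each, summed over the 6 samples.

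**Figure D2:**
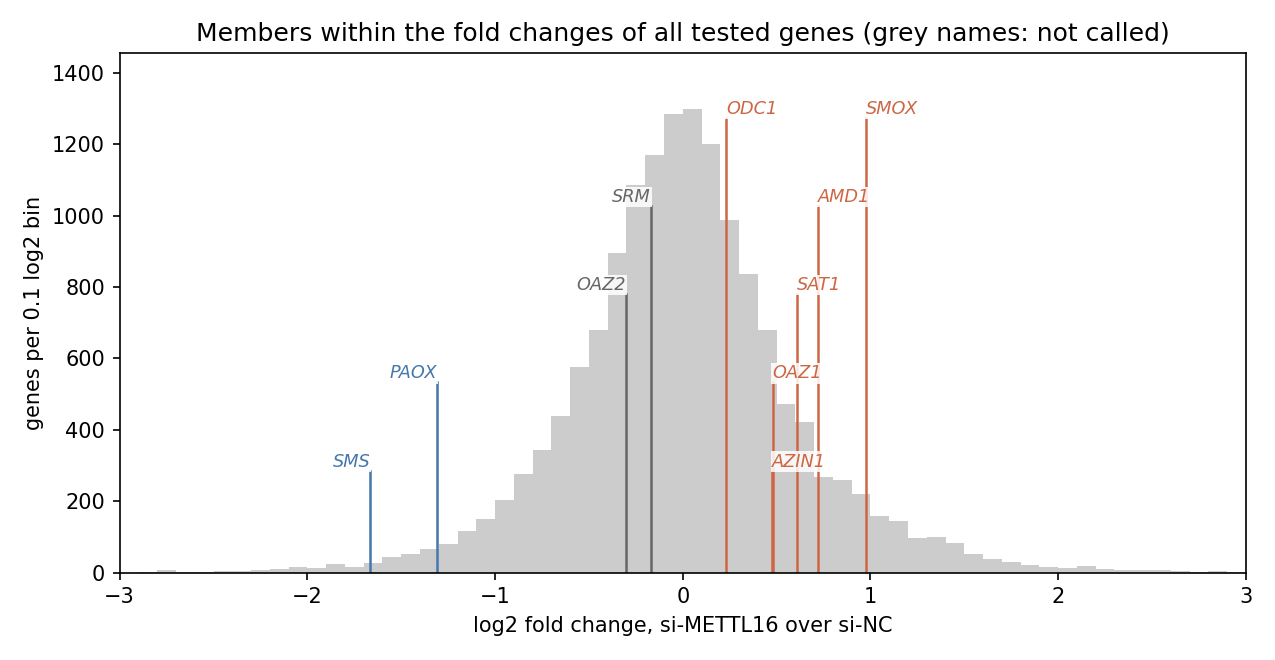
Number of tested genes by log2 fold change (grey bars, 0.1 per bin) with the 10 polyamine genes as vertical lines whose heights only separate the names. SMS (-1.67) and PAOX (-1.31) lie in the lower tail and SMOX (0.97) highest of the members, and 29 genes beyond 3 in either direction are not drawn.

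All 3 catabolic genes were called, SAT1 and SMOX upward and PAOX downward, against 35.9% of all tested genes. SAT1 (ENSG00000130066, chromosome X from 23783173 to 23786226), the acetyltransferase that starts breakdown and export, was the most abundant member. It was counted 6034, 6053 and 6451 times in si-NC and 8789, 8967 and 9683 times in si-METTL16 replicates 1, 2 and 3. The control samples lay close together and all silenced samples lay above them, at 62.2 ± 1.16 and 93.4 ± 3.83 FPKM (SD, n = 3 each). The log2 fold change was 0.61 (SE 0.05, edgeR adjusted p = 2.66e-04), which is 1.52-fold. A GENCODE v44 gene that overlaps SAT1 (ENSG00000288706) was not analysed here.

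SMOX (ENSG00000088826, chromosome 20 from 4120980 to 4187747), the spermine oxidase that also releases hydrogen peroxide, had the largest increase among the 10 genes. Its counts were 471, 387 and 546 in si-NC and 1000, 754 and 927 in si-METTL16 samples, without overlap. The FPKM was 6.25 ± 0.967 in si-NC and 12.1 ± 1.42 in si-METTL16 cells (SD, n = 3 each), a log2 change of 0.97 (SE 0.14, edgeR adjusted p = 0.00206) or 1.97-fold. Of all tested genes, 874 (5.79%) had a higher log2 fold change. SMOX and SMS act in opposite directions between spermidine and spermine, and their mRNAs moved in opposite directions.

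PAOX (ENSG00000148832, chromosome 10 from 133379234 to 133391694), the oxidase of acetylated polyamines, was the least expressed member. It was counted only 67, 58 and 82 times in si-NC and 19, 28 and 34 times in si-METTL16 samples, so that its values carry more counting error than those of the other genes. The silenced samples were still all below the controls, at 0.378 ± 0.0948 against 0.954 ± 0.151 FPKM (SD, n = 3 each). The log2 fold change was -1.31 (SE 0.26, edgeR adjusted p = 0.00725), or 40.3% of the control level, and leaving out single samples gave -1.44 to -1.12. A readthrough transcript of PAOX and the neighbouring MTG1 is listed as a gene of its own, with 58, 43 and 101 counts in si-NC and 62, 38 and 35 in si-METTL16 samples. Reads in shared exons could be split between it and PAOX, which makes the level of PAOX uncertain.

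To compare members with opposing or consecutive roles, log2 ratios of their FPKM were computed in each sample for 5 pairs. The ratio of SRM to SMS, the successive synthases, was 0.651, 0.597 and 0.561 in the control replicates 1, 2 and 3 and 1.82, 1.53 and 1.78 in the si-METTL16 replicates. The deposited FPKM of SMS thus exceeded that of SRM in every control sample and was below it in every silenced sample. The ratio was 2.83-fold higher (two-sided exact permutation test, p = 0.1, adjusted p = 0.125 over the 5 pairs), and p = 0.1 is the smallest that 3 samples against 3 allow. The ratio of SMOX to PAOX was 6.79, 6.44 and 6.43 in si-NC and 50.8, 26.0 and 26.3 in si-METTL16 samples, a difference of 2.32 on the log2 scale. Here both oxidases contributed, and si-METTL16 replicate 1, with the fewest PAOX counts, had the highest ratio. The readthrough gene of PAOX and MTG1 had 62 counts in that replicate, against 38 and 35 in the other silenced samples. The part of shared reads in this ratio was not tested.

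The ratio of ODC1 to OAZ1, the enzyme to its antizyme, was 2.15, 2.39 and 2.25 in si-NC and 1.86, 2.07 and 1.79 in si-METTL16 samples. It was lower in every silenced sample, with a log2 difference of -0.25, since OAZ1 rose more than ODC1. The ratio of AZIN1 to ODC1 was 0.807, 0.767 and 0.789 in si-NC and 0.983, 0.873 and 0.949 in si-METTL16 samples, a log2 difference of 0.25. These pairs and SMOX to PAOX also gave p = 0.1 (adjusted p = 0.125) in the exact permutation test. Per kilobase of the GENCODE v44 exon union, mean si-NC CPM was 43.5 for ODC1, 48.0 for OAZ1 and 44.9 for AZIN1. The size of both ratios with ODC1 therefore depends on the gene length used, while their change between groups does not. The ratio of OAZ1 to OAZ2 ranged from 1.89 to 5.19 in si-NC and from 3.25 to 8.57 in si-METTL16 samples, and the groups overlapped (exact permutation test, p = 0.3, adjusted p = 0.3).

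**Figure D3:**
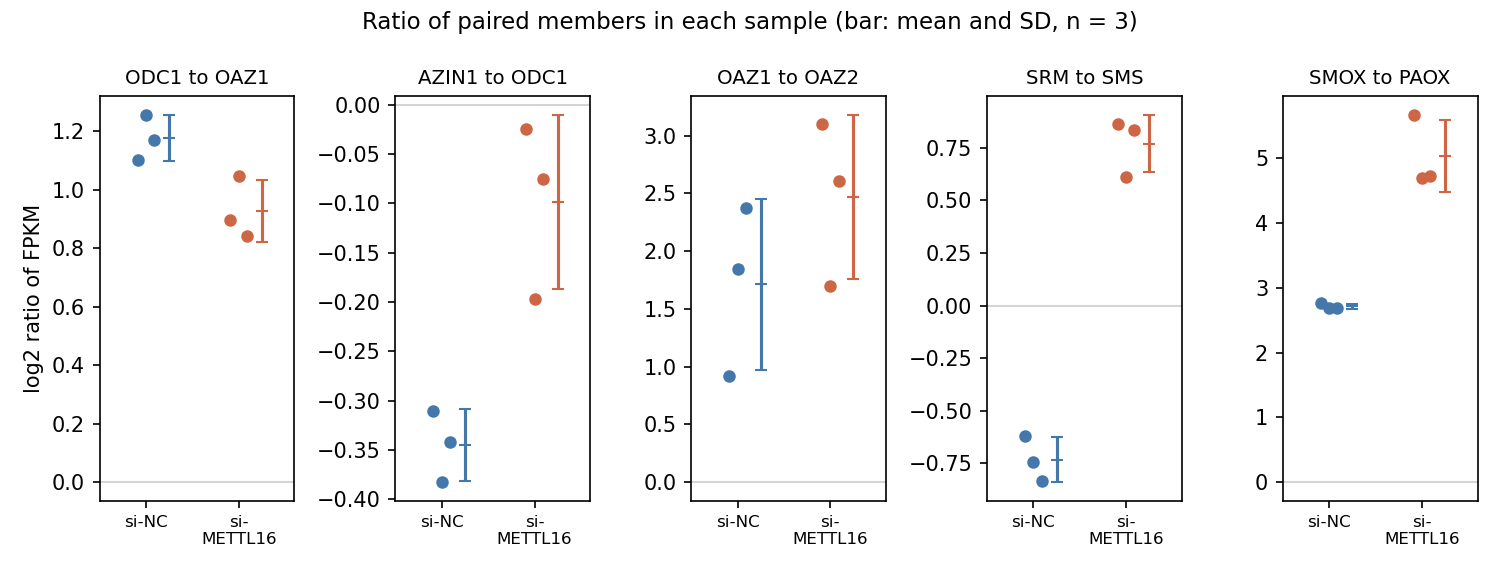
Log2 ratio of FPKM for 5 pairs of members in each si-NC (blue) and si-METTL16 (orange) sample, with the mean and SD beside the points and a separate vertical scale in each panel. SRM to SMS crosses 0, the level of equal FPKM, from -0.73 to 0.77, and only OAZ1 to OAZ2 overlaps between the groups.

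Related genes were taken from a list of 28 genes for ornithine and SAM supply, further family members, hypusine formation, methylthioadenosine salvage and polyamine transport. Of these, 23 passed the filter and 6 were differentially expressed (26.1%), 3 higher and 3 lower, with a median log2 fold change of -0.11. This share was below the 35.9% of all tested genes that were called. Among the supply genes MAT2A, the SAM synthetase, was counted 16867, 13504 and 15471 times in si-NC and 9017, 8263 and 9430 times in si-METTL16 samples, a log2 change of -0.74 (SE 0.08, edgeR adjusted p = 7.56e-04). All silenced samples lay below the controls, and 59.9% of the level was left. MAT2B, its regulatory subunit, had a log2 change of 0.04 (edgeR adjusted p = 0.718). OAT, which interconverts ornithine and glutamate semialdehyde, was lower by a small amount (log2 fold change -0.20, edgeR adjusted p = 0.026), and ALDH18A1, which makes that semialdehyde from glutamate, was higher (log2 fold change 0.20, edgeR adjusted p = 0.0409). The call of ALDH18A1 was lost when any sample was left out (edgeR adjusted p = 0.0651 to 0.136), and that of OAT without si-NC replicate 1 or 3 or si-METTL16 replicate 2 or 3 (edgeR adjusted p = 0.0701 to 0.0872). Arginase ARG1 was at 0 counts in every sample, and ARG2 did not pass the threshold.

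Methylthioadenosine is the by-product of both synthases and is salvaged to methionine. In this list of 5 genes MRI1 fell (log2 fold change -0.71, edgeR adjusted p = 0.00268), with 284, 288 and 303 counts in si-NC and 161, 153 and 207 in si-METTL16 samples. ENOPH1, a later step, rose (log2 fold change 0.58, edgeR adjusted p = 0.00771), with 591, 554 and 714 against 786, 894 and 1024 counts. With these, 2 of the 5 genes were called, a share close to the 35.9% over all tested genes. MTAP, the first enzyme, was low and uneven at 26, 155 and 189 counts in si-NC and 122, 131 and 42 in si-METTL16 samples. APIP and ADI1 did not pass the threshold.

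Spermidine is also the donor for hypusine, a modified lysine of the translation factor EIF5A. EIF5A rose slightly, from 36.7 ± 2.41 to 44.1 ± 2.10 FPKM (SD, n = 3 each), a log2 change of 0.29 (edgeR adjusted p = 0.0145). This call was lost without si-NC replicate 1 or 3 (edgeR adjusted p = 0.0504 and 0.0592). The modifying enzymes DHPS and DOHH and the paralog EIF5A2 did not pass the threshold. None of the 5 tested transport genes did in edgeR's test, against 35.9% of all tested genes. In that test 0 of them had an unadjusted p under 0.05, and DESeq2 and limma on voom values called none either. SLC47A1, which exports organic cations, had 375, 365 and 343 counts in si-NC and 349, 132 and 174 in si-METTL16 samples. Without si-METTL16 replicate 1, its log2 fold change was -1.22 (edgeR adjusted p = 0.00209). The further family genes OAZ3, AZIN2 and SAT2 did not pass the threshold, with 0 of the 3 called and 0 at an unadjusted p under 0.05, and DESeq2 and voom called none.

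**Figure D4:**
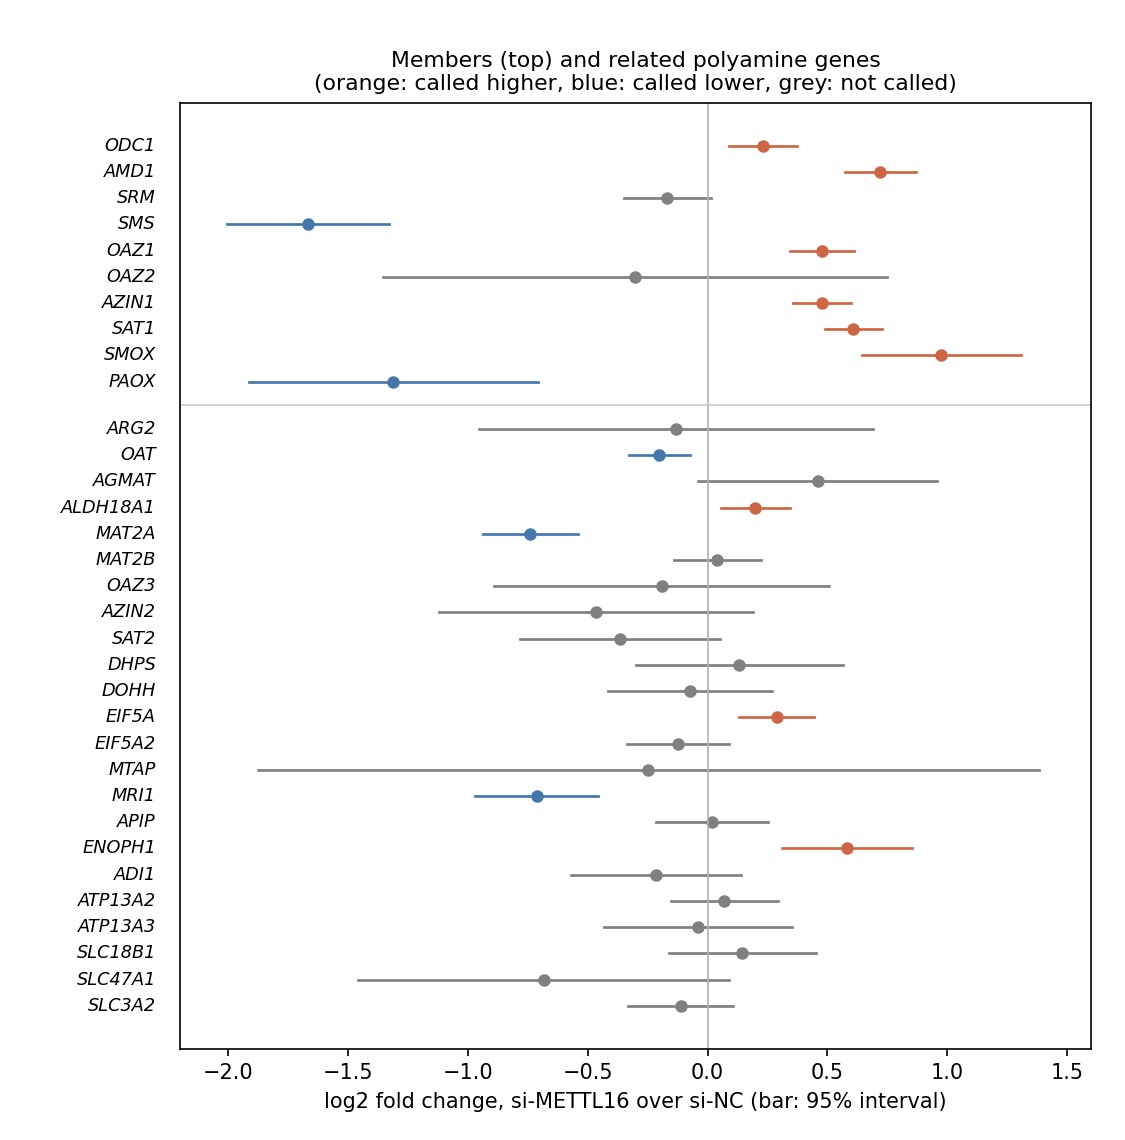
Log2 fold change of the 10 members (above the line) and the 23 tested related genes (below it), with 95% intervals from edgeR's fit (orange called higher, blue called lower, grey not called). SMS, PAOX, MAT2A and MRI1 lie furthest below 0 among the called genes and SMOX furthest above, while the intervals of OAZ2 and MTAP span 0 widely.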

How the data were processed

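RNA-seq libraries of 3 si-NC and 3 si-METTL16 samples of PANC-1 cells were used, grouped and numbered by sample title. The authors deposited raw counts per gene and FPKM, which corresponds to these counts over gene length and library total. Per the labels, the submitters' processing notes name HISAT2 2.0.4, StringTie 1.3.0 and GRCh38. The counting program, annotation release and use of strand are not given in the sources used here, so overlapping genes are uncertain. Replicates are called biological triplicates without further detail. The p-values judge the difference between groups against the spread between these samples. In edgeR that spread is estimated in part across genes.

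Counts were filtered with filterByExpr (minimum count 10, minimum total count 15), scaled by TMM and fitted in edgeR 4.0.16 (R 4.3.3) by glmQLFit, followed by glmQLFTest. Adjustment was by Benjamini-Hochberg over 15089 genes, at a threshold of 0.05. The methods name limma, which was run as an alternative (limma 3.58.1) because raw counts were deposited. Each standard error (SE) was derived from the F statistic. The fit was tested on simulated data. Ratios of FPKM were compared with a two-sided exact permutation test. Motifs were searched with Python 3.11.15 in GENCODE v44 transcripts and RefSeq promoters, after the data were seen. Every member and every related gene could be named, with values where called. The members and gene lists were chosen with earlier results of these data known. Alternatives were a replicate block, each sample left out, other filters, DESeq2 1.42.0 and limma on voom or FPKM values.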

Additional observations from a re-analysis of the deposited data

How the results depend on the processing

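Across all alternatives run, between 7 and 8 of the 10 polyamine genes were called, against 8 in the reported fit. AMD1, OAZ1, AZIN1, SAT1, SMOX, SMS and PAOX kept their direction and call in every alternative that tested them. PAOX was not tested by limma on FPKM because its mean FPKM was under 1. All alternatives used the deposited assignment of reads between PAOX and its readthrough gene. Only ODC1 lost its call, in 5 of 6 leave-one-out fits, and only OAZ2 changed sign among the members, with leave-one-out values from -0.76 to 0.23. The log2 fold changes of ODC1 and SRM without each sample ranged from 0.19 to 0.26 and from -0.23 to -0.12. The number of all genes called ranged from 4159 (without si-NC replicate 3) to 5487 (limma on voom values).

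The count of related genes called ranged from 3 to 6 when a sample was left out. It was 3 without si-NC replicate 1 or 3. OAT and ALDH18A1 lost their calls in several of these fits, with adjusted p up to 0.0872 and 0.136 from edgeR, and also without a filter on low counts (0.0543 and 0.0908), where more genes are tested. ADI1 was called without si-METTL16 replicate 3 (edgeR adjusted p = 0.048). Uncalled related genes that changed sign when a sample was left out were ARG2 (-0.44 to 0.10), MAT2B (-0.024 to 0.077), DOHH (-0.20 to 0.038), MTAP (-0.73 to 0.17), APIP (-0.065 to 0.071) and ATP13A3 (-0.16 to 0.18). APIP was also at -0.00435 and -0.00524 in limma on log2(FPKM + 1) and log2(FPKM + 0.1). The cause was not tested.

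With the replicate block, 5013 genes were called in all, 8 members and 5 related genes, ALDH18A1 being lost (edgeR adjusted p = 0.0648). Deviations of same-numbered samples correlated at 0.0253 to 0.0371 across genes, and those of differently numbered samples at -0.0388 to 0.00827. All these values were small, although the same-numbered ones were the highest, and the numbers were not taken as pairs in the reported fit. For the ratios, sign flips over the replicate block leave the difference of means unchanged by construction. The lowest p in this exact permutation test was 0.25. All 5 ratios kept their direction under every alternative, and that of OAZ1 to OAZ2 ranged from 0.36 to 1.14. Scaling between samples cancels within a ratio, so TMM-scaled CPM could not have changed the direction either. The 3 samples per group limit the precision, and for PAOX the low counts do so too.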
